A study of Homo sapiens with 30 samples.

Results

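DNA replication and S phase genes were followed through 30 libraries of HepG2 cells treated with sorafenib or its solvent after transfection with a miRNA inhibitor or mimic. The 43 genes were taken from the count table by symbol, from a list written with earlier results of these data known, and fall into these roles: E2F factors and G1 cyclins, origin licensing, activation of the replicative helicase, the sliding clamp and its loader, DNA polymerases, lagging strand processing, nucleotide supply, and the maintenance of DNA methylation at the fork. Each symbol matched 1 of the 60107 gene rows of the count table. All 43 had a count in every library, and all passed the filter on low counts in each of the 3 fits.

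Cells duplicate their genome once per division. In G1, cyclin D and cyclin E kinases release E2F factors from the retinoblastoma proteins, and E2F then drives transcription of most of the genes described here. The origin recognition complex, CDC6 and CDT1 load the MCM helicase ring on DNA, and CDC45 and the GINS complex turn it on in S phase. Polymerases held by the PCNA clamp then copy both strands from deoxynucleotides supplied by ribonucleotide reductase and thymidylate synthase. The transcripts of many of these genes peak at the start of S phase.

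HepG2 is an established liver tumour line. The labels call it hepatocellular carcinoma, whereas the study describes it as hepatoblastoma. Cells received lipid-delivered locked nucleic acid oligonucleotides, and 10 µM sorafenib or DMSO was added 24 h later. Sorafenib is a multikinase inhibitor used in advanced hepatocellular carcinoma. Cultures lysed after 6 h of treatment carried I-miR-200c-3p, which inhibits miR-200c-3p, or its control oligonucleotide (IC), each with DMSO or sorafenib. Cultures lysed after 24 h carried M-miR-222-5p or M-miR-512-3p, which mimic miR-222-5p and miR-512-3p, or the control of both (MC), and were treated in the same way. Each of these 10 groups had 3 libraries of 1 cell line, and every culture, the controls included, had been transfected. The study calls the 3 replicates of each group independent, while the labels do not say whether they were separate cultures, so p-values measure the spread between these libraries. Replicate libraries differed by more than counting error (chi-square per degree of freedom 4.54 to 66.2), and each was counted as a separate sample.

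The libraries were QuantSeq 3′ libraries, in which reads fall near the 3′ end of polyadenylated transcripts. Total counts were 3939000 to 9657000 per library (median 6461000), of which mitochondrial genes took 17.5% to 26.8%. The liver products ALB, AFP, APOA1, APOB and SERPINA1 were detected in all 30 libraries, whereas COL1A2, DCN, LUM, VWF, TEK and CD3E, which mark other cell types, had 0 counts in every library. Summed marker levels were 0 to 5.83 CPM for fibroblasts, 0 to 3.08 CPM for endothelial cells and 96.4 to 317 CPM for leukocytes, the last mostly LYZ (up to 309 CPM). Replicate 3 of M-miR-512-3p with sorafenib had 17.5% mitochondrial counts against 24.2% in each of its groupmates. Replicate 2 of I-miR-200c-3p with DMSO had 26.8%, against 19.9% and 18.2% in its groupmates. Genes with a count numbered 16132 in replicate 2 of MC with sorafenib, against 13394 and 15170 in its groupmates. In replicate 3 of M-miR-512-3p with sorafenib they numbered 16582, against 13656 and 13866. Levels are in CPM, read counts scaled to library size with TMM factors, which set the libraries of 1 experiment on a common scale; the scales of 6 h and 24 h are separate, and levels are not compared between genes. In bulk RNA, fewer cells in S phase and less RNA of a gene per cell cannot be told apart.

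The 3 oligonucleotides address the miRNAs below, whose mature sequences are shown because the members are later searched for their sites. They come from RefSeq on GRCh38.p14. MicroRNAs themselves are not captured by polyadenylated libraries, so the transfections could not be checked here. The seed (bases 2 to 8) is in capitals, and no pair of the 3 shares it. miR-200c-3p lies at chr12:6963742-6963764 (+), miR-222-5p at chrX:45747073-45747094 (-), and miR-512-3p at chr19:53666729-53666750 (+), with the same mature sequence encoded again at chr19:53669213-53669234 (+).
hsa-miR-200c-3p: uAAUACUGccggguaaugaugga
hsa-miR-222-5p: cUCAGUAGccaguguagauccu
hsa-miR-512-3p: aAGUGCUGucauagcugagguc

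Promoters were inspected because E2F binding is the textbook link between these genes. RefSeq gave 46 windows, each 250 bases before to 50 after a transcription start, for 36 of the 43 members. The letters TTTCCCGC, TTTCGCGC, TTTGGCGC and TTTGCCGC, which follow the E2F consensus, were searched on both strands. At least 1 was present in 21 of the 46 windows (45.7%), belonging to 20 members, against 1164 of all 35116 windows in the RefSeq table (3.31%). With TTTCGCGC and TTTGGCGC only, the shares were 28.3% and 1.15%. The shorter letters CCAAT, the core of the NF-Y motif, were in 60.9% of member windows and 34.6% of all windows. A match describes letters and is not a bound site. MCM6, a subunit of the helicase ring that fell under sorafenib at 24 h, has the run TTTGGCGCGAAA at 2 places in its window at chr2:135876394-135876693 (minus strand). TTTGGCGC and the reverse complement of TTTCGCGC overlap in each run, which is in capitals.
MCM6: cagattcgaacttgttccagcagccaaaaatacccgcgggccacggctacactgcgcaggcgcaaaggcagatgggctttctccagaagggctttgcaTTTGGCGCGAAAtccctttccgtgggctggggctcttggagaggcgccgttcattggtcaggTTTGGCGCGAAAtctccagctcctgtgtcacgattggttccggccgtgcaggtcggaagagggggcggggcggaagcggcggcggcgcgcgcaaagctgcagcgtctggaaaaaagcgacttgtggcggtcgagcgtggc

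Of the 10 members that changed under sorafenib at 24 h, 9 had a window and 7 of these held an E2F word, against 13 of the 27 other members with a window. RRM2 and ORC6 had a window without these words. The stretches of 48 bases around a word are given, 5′ to 3′ on the gene's strand with the word or its reverse complement in capitals, for the other called members, because these are the genes whose values follow. They lie at chr20:25407658-25407705 (+) for GINS1, chr1:23531248-23531295 (-) for E2F2, chr6:52284719-52284766 (-) for MCM3, chr11:65261889-65261936 (+) for POLA2, chr12:132687333-132687380 (-) for POLE and chr19:4909467-4909514 (+) for UHRF1.
GINS1: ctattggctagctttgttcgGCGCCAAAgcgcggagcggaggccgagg
E2F2: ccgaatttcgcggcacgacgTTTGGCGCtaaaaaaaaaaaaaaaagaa
MCM3: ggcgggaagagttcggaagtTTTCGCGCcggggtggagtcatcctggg
POLA2: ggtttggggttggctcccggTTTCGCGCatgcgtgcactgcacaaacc
POLE: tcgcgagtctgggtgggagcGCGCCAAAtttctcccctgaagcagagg
UHRF1: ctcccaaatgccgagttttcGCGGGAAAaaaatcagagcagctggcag

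The summed counts of the 43 genes gave a first view of the whole module. At 24 h they made up 0.289% to 0.314% of the library in MC with DMSO, 0.341% to 0.365% in M-miR-222-5p with DMSO and 0.339% to 0.371% in M-miR-512-3p with DMSO. With sorafenib, the 3 libraries held 0.249% to 0.293% after M-miR-222-5p and 0.248% to 0.282% after M-miR-512-3p, in each case below every DMSO library of the same transfection. The ratio of the sorafenib to the DMSO mean was 0.773 after M-miR-222-5p and 0.740 after M-miR-512-3p. After MC it was 0.877 and the libraries overlapped: replicate 2 with sorafenib held 0.323%, the other 2 held 0.241% and 0.230%, and their mean without replicate 2 was 0.235%. At 6 h the ratios were 0.937 after IC and 0.916 after I-miR-200c-3p, with overlapping libraries. These shares describe the libraries and were not tested.

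**Figure D1:**
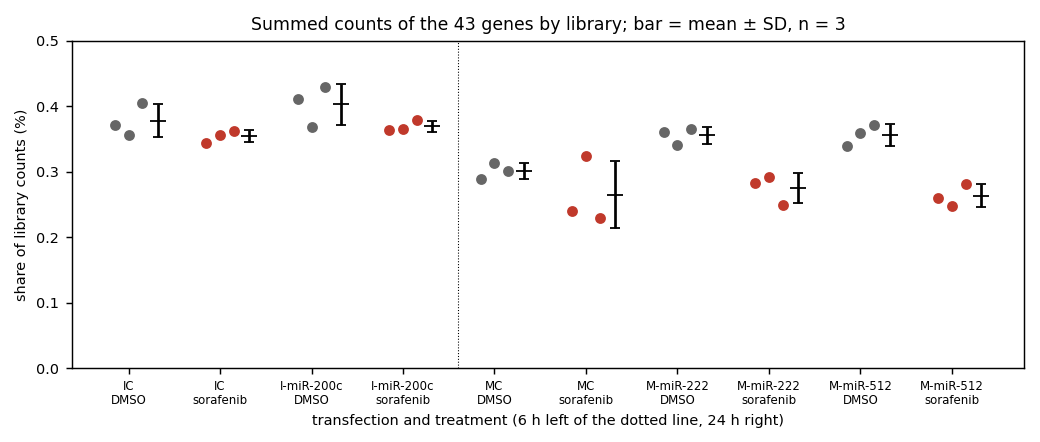
Share of all library counts (%, y axis) taken by the 43 genes in each library (points), with the mean ± SD of the 3 libraries of each group beside them; grey is DMSO and red is sorafenib. At 24 h, the sorafenib libraries of M-miR-222-5p (mean 0.275%) and M-miR-512-3p (mean 0.263%) lie below their DMSO libraries (means 0.356% and 0.356%), and replicate 2 of MC with sorafenib lies above its groupmates.

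The first comparison asked what sorafenib did to these genes at 24 h, as the mean effect over the 3 transfections. With edgeR's quasi-likelihood test and Benjamini-Hochberg adjustment over all genes, 10 of the 43 members were called at an adjusted p of 0.05, which is 23.3%. Of all 13244 genes tested, 25.8% were called, so the number of members called was near the background. By direction, 9 members fell, where 12.4% of all genes fell, and 1 member rose, where 13.4% of all genes rose. The median log2 fold change of the members was -0.19 against -0.04 over all genes, and 34 of 43 values were below 0. In the group means, 18 members were lower with sorafenib in all 3 transfections and 3 were higher in all 3 (ORC6, CDC6 and RFC2). The genes that fell were spread over the pathway and included subunits of the helicase, its activator, polymerases, ribonucleotide reductase, E2F2 and cyclin D1, whereas no member of the clamp and its loader passed the test.

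**Figure D2:**
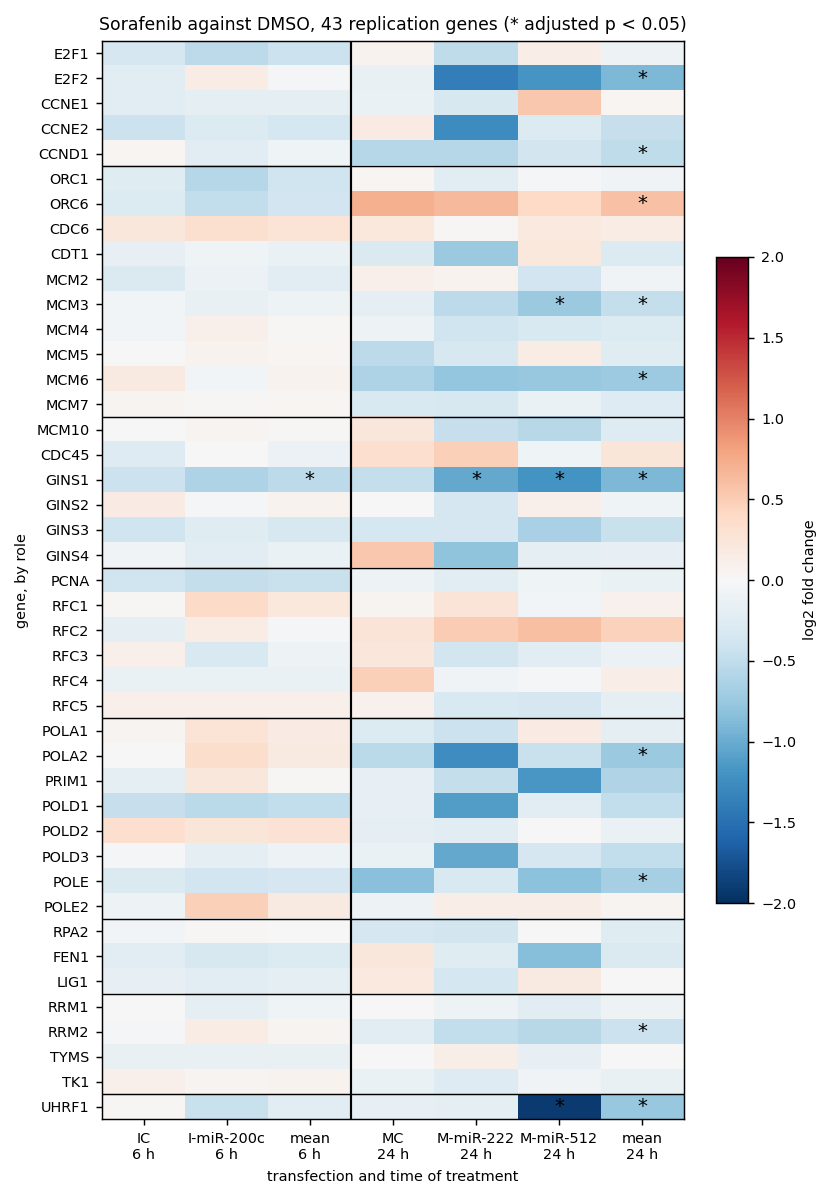
Log2 fold change of sorafenib against DMSO for the 43 genes (rows, ordered by role, with lines between roles) in 5 transfections and in the mean of each time (columns); an asterisk marks an adjusted p under 0.05. GINS1 is marked in 4 of the 7 columns, the last column has 10 marks, and of these only ORC6 is red.

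GINS1, a subunit of the GINS complex that activates the helicase, had the lowest adjusted p of the members. It lies at chr20:25391008-25452700 (+). In the 9 DMSO libraries of 24 h it measured 32.2 to 45.3 CPM (median 40.3), and in the 9 sorafenib libraries 14.1 to 33.0 CPM (median 19.5). The 3 sorafenib libraries lay below the 3 DMSO libraries within each transfection. The log2 fold change was -0.90 (SE 0.15, adjusted p = 0.000129, edgeR), a level 0.536 times that of DMSO. The other subunits did not pass the test: GINS2 was at -0.08, GINS3 at -0.45 and GINS4 at -0.16 on the log2 scale, with adjusted p values from edgeR of 0.639, 0.215 and 0.646. The other members that act at this step, MCM10 and CDC45, which help to form the active helicase, had log2 fold changes of -0.26 (adjusted p = 0.21, edgeR) and 0.24 (adjusted p = 0.549, edgeR).

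Origin licensing held both directions. MCM6 was at 24.4 to 42.0 CPM (median 31.1) in the DMSO libraries and 12.3 to 28.8 CPM (median 20.2) in the sorafenib libraries, again without overlap within any transfection. Its log2 fold change was -0.72 (SE 0.16, adjusted p = 0.00217, edgeR). MCM3, another subunit of the same ring, was at 192 to 345 CPM (median 299) and at 155 to 292 CPM (median 196), and fell by 0.48 on the log2 scale (SE 0.13, adjusted p = 0.00955, edgeR). The highest of its sorafenib values came from replicate 2 of MC. The 4 remaining subunits had log2 fold changes of -0.08 (MCM2), -0.27 (MCM4), -0.24 (MCM5) and -0.25 (MCM7), none of which passed the test. All 6 ring subunits thus had values below 0, and 2 of them passed.

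ORC6, the smallest subunit of the origin recognition complex, was the only member that rose. It measured 25.2 to 50.9 CPM (median 35.7) in the DMSO libraries and 31.3 to 77.0 CPM (median 53.8) in the sorafenib libraries. The sorafenib libraries lay above the DMSO libraries after MC and after M-miR-222-5p, while after M-miR-512-3p the values of 66.5, 31.3 and 77.0 CPM enclosed the DMSO values of 33.8, 48.5 and 50.9 CPM. The log2 fold change was 0.58 (SE 0.16, adjusted p = 0.00713, edgeR). The other licensing genes did not pass the test: ORC1, the largest origin recognition subunit, was at -0.08, CDT1, which loads the ring with CDC6, at -0.28, and CDC6 at 0.14 on the log2 scale.

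Among the G1 regulators, cyclin D1 (CCND1), the partner of CDK4 and CDK6, was at 168 to 397 CPM (median 288) with DMSO and 126 to 258 CPM (median 201) with sorafenib. Its log2 fold change was -0.51 (SE 0.12, adjusted p = 0.00257, edgeR), and the libraries did not overlap after MC or M-miR-222-5p. E2F2, an activating E2F factor, was at 5.41 to 16.7 CPM (median 10.5) and 2.52 to 10.9 CPM (median 5.79), and fell by 0.90 on the log2 scale (SE 0.26, adjusted p = 0.0114, edgeR). The E2F2 libraries separated after M-miR-222-5p but overlapped in the other 2 transfections. E2F1, another activating factor, was at -0.10, and the cyclin E genes CCNE1 and CCNE2, which drive entry into S phase, were at 0.03 and -0.46 on the log2 scale, with adjusted p values from edgeR of 0.703, 0.916 and 0.449.

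Of the polymerase genes, 2 of 8 fell. POLA2, the accessory subunit of the primase-bound polymerase alpha, had a log2 fold change of -0.75 (SE 0.24, adjusted p = 0.023, edgeR), with a median of 14.6 CPM in DMSO and 9.12 CPM in sorafenib. POLE, the catalytic subunit of the leading strand polymerase, had -0.66 (SE 0.21, adjusted p = 0.0245, edgeR), with medians of 29.1 and 16.0 CPM. Both calls depended on single libraries. POLA2 was not called in 5 of the 18 fits with 1 library fewer, those without replicate 2 of MC with DMSO, replicate 1 of MC with sorafenib, replicates 1 or 3 of M-miR-222-5p with sorafenib, or replicate 2 of M-miR-512-3p with DMSO (adjusted p up to 0.0813, edgeR, without the last of these). POLE was not called in 6 of 18, those without replicate 3 of MC with DMSO, replicates 1 or 3 of MC with sorafenib, replicate 3 of M-miR-222-5p with sorafenib, replicate 3 of M-miR-512-3p with DMSO, or replicate 1 of M-miR-512-3p with sorafenib (adjusted p up to 0.0718, edgeR, without replicate 3 of MC with sorafenib). The primase subunit PRIM1 was at -0.60 (adjusted p = 0.0513, edgeR), just outside the threshold. POLD1 and POLD3, of the lagging strand polymerase delta, were both at -0.50, POLA1 at -0.18, POLD2 at -0.14 and POLE2 at 0.06 on the log2 scale, and none passed the test.

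RRM2, the small subunit of ribonucleotide reductase, was at 118 to 206 CPM (median 164) with DMSO and 85.0 to 153 CPM (median 125) with sorafenib. It fell by 0.42 on the log2 scale (SE 0.12, adjusted p = 0.0108, edgeR), and the libraries did not overlap after either mimic. The large subunit RRM1 was at -0.10, thymidylate synthase (TYMS) at -0.02 and thymidine kinase (TK1) at -0.16, with adjusted p values from edgeR of 0.558, 0.939 and 0.438. The clamp PCNA and its loader subunits RFC1 to RFC5 ranged from -0.19 to 0.46 on the log2 scale, and the largest value, that of RFC2, had an adjusted p of 0.0976 with edgeR. Values for RPA2, which coats single-stranded DNA, FEN1, which trims Okazaki fragments, and LIG1, which joins them, were -0.24, -0.29 and 0.00, and none passed.

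UHRF1 binds hemimethylated DNA behind the fork and brings in the maintenance methyltransferase. It was at 8.74 to 21.6 CPM (median 12.6) in the DMSO libraries of 24 h and at 2.30 to 21.4 CPM (median 10.4) in the sorafenib libraries. Its mean log2 fold change was -0.76 (SE 0.22, adjusted p = 0.0127, edgeR), but the libraries separated only after M-miR-512-3p, described below.

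**Figure D3:**
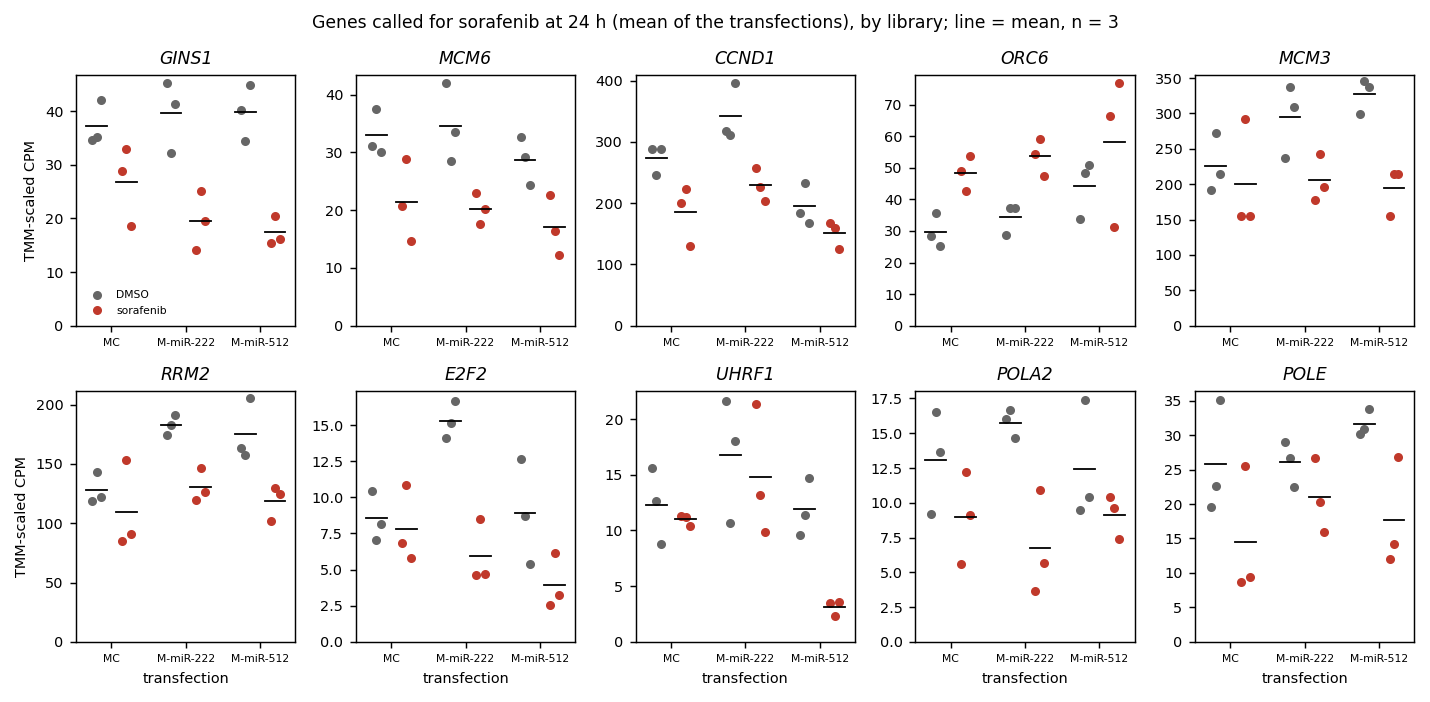
TMM-scaled CPM (y axis, from 0) in each of the 18 libraries of 24 h (points; grey DMSO, red sorafenib; line, mean of 3) for the 10 genes called in the mean over transfections, in order of adjusted p. In GINS1 and MCM6 the red points lie below the grey ones in all 3 transfections, ORC6 runs the other way, and UHRF1 separates only after M-miR-512-3p.

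Replicate 2 of MC with sorafenib was the highest of its 3 libraries for 8 of these 10 genes. When it and replicate 3 of M-miR-512-3p with sorafenib were left out together, an alternative chosen after the data were seen, 13 members were called: the same 10, with MCM7, PRIM1 and FEN1. In that fit 25.5% of all genes tested were called. The values of these genes in the libraries left out were known when the choice was made. The count of 13 is therefore no independent support for the falls. The part of these libraries in the result was not tested further.

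Genes of the pathway outside the 43 were read in the same fit. Of 42 further replication and S phase genes, 15 were called, 11 lower and 4 higher, with a median of -0.10 against -0.04 over all genes. Of 28 tested genes of G1/S control, 8 were called, 4 in each direction, and of 24 mitosis genes, 4 were called, all lower. These counts are 35.7%, 28.6% and 16.7% of the 3 lists, set against 25.8% of all genes, and no difference between lists was tested. The 6 genes with the lowest adjusted p were the mitotic cyclin CCNB1, CDKN1A, FBXW7, E2F8, BIRC5 and RBL1. CDKN1A, an inhibitor of cyclin kinases, rose by 0.72 on the log2 scale (adjusted p = 4.5e-05, edgeR), and FBXW7, which targets cyclin E for degradation, rose by 0.66. CCNB1 had a log2 fold change of -0.91 (adjusted p = 3.6e-05, edgeR), and the E2F target repressor E2F8 one of -2.16 (SE 0.48, adjusted p = 0.0016, edgeR). BIRC5, a subunit of the chromosomal passenger complex, was at -0.51, and RBL1, a relative of the retinoblastoma protein, at -0.78. Among the single transfections, CDKN1A and CCNB1 were called after M-miR-512-3p, as given below, and not after MC or M-miR-222-5p.

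Within single transfections at 24 h, few members passed. After MC alone, 0 of 43 members were called by edgeR and 0 by DESeq2, while 4 had an unadjusted p under 0.05, and 2.6% of all genes were called. The members' median was -0.11 against -0.02 over all genes, with 24 of 43 values below 0. In 3 members all sorafenib libraries lay below all DMSO libraries, where 11.9% of all genes did. The 3 lowest p values belonged to CCND1, ORC6 and POLE. For CCND1 the DMSO libraries had 289, 245 and 288 CPM and the sorafenib libraries 201, 224 and 130 CPM. ORC6 had 28.4, 35.7 and 25.2 CPM with DMSO and 49.0, 42.6 and 53.8 CPM with sorafenib. These 2 genes did not overlap between treatments but had adjusted p values from edgeR of 0.135 and 0.16. POLE had 19.5, 22.6 and 35.1 CPM with DMSO and 8.66, 25.5 and 9.41 CPM with sorafenib, an overlap that came from replicate 2. Without that library POLE was the 1 member called (adjusted p = 0.022, edgeR).

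After M-miR-222-5p, sorafenib lowered 1 member, where 4.38% of all genes were called and 1.56% fell. GINS1 measured 45.3, 32.2 and 41.4 CPM with DMSO and 14.1, 25.2 and 19.5 CPM with sorafenib, with no overlap. Its log2 fold change was -1.03 (SE 0.27, adjusted p = 0.0268, edgeR). With the replicate number as a block, which pairs these groups, 2 members were called, GINS1 and POLA2, among 748 genes in all. The call of GINS1 was lost in 4 of 6 fits that left out 1 library (adjusted p up to 0.191, without replicate 1 with sorafenib; kept without replicate 2 of either treatment) and in the fit of these 2 groups alone, in which 0 members passed. Without replicate 2 with sorafenib 3 members were called. The members' median was -0.34 against -0.04 over all genes, with 35 of 43 values below 0. In 14 of 43 members all 3 sorafenib libraries lay below all 3 DMSO libraries, against 13.1% of all genes tested, a difference that was not tested. Outside the 43, the called pathway genes were the kinase inhibitor CDKN2D (1.85), the pocket protein RBL1 (-1.26), E2F8 (-2.96) and the histone chaperone subunit CHAF1A (-0.81).

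After M-miR-512-3p, sorafenib lowered 3 members, UHRF1, GINS1 and MCM3, where 9.96% of all genes were called and 4.62% fell. UHRF1 had 9.59, 11.4 and 14.7 CPM with DMSO and 3.48, 2.30 and 3.57 CPM with sorafenib. The low values rested on 18, 12 and 30 counts. The log2 fold change was -1.92 (SE 0.40, adjusted p = 0.0029, edgeR) and the call held in each of the 6 fits with 1 library fewer. GINS1 had 40.3, 34.4 and 44.8 CPM with DMSO and 15.5, 20.5 and 16.2 CPM with sorafenib. The log2 fold change of GINS1 was -1.20 (SE 0.27, adjusted p = 0.00522, edgeR), kept in all 6 fits. MCM3 had 299, 345 and 337 CPM with DMSO and 155, 214 and 215 CPM with sorafenib. Its log2 fold change was -0.75 (SE 0.23, adjusted p = 0.0388, edgeR) and stayed between -0.83 and -0.58 in the 6 fits with 1 library fewer. The call of MCM3 was kept in 1 of these, without replicate 3 with sorafenib, and lost in 5 (adjusted p up to 0.186, without replicate 1 with sorafenib). None of these 3 genes overlapped between treatments. Without replicate 3 with sorafenib, whose mitochondrial share is given above, 5 members were called. Over all members, 9 had every sorafenib library below every DMSO library, where 16.5% of all genes did. The members' median was -0.20 against -0.03 over all genes.

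Other pathway genes moved in the same libraries. CDKN1A went from 75.7 ± 11.1 to 215 ± 30.2 CPM (SD, n = 3) with sorafenib after M-miR-512-3p, a log2 fold change of 1.51 (adjusted p = 2.8e-05, edgeR). CCNB1 went from 91.1 ± 15.9 to 24.7 ± 5.66 CPM (SD, n = 3), a log2 fold change of -1.88 (adjusted p = 2.9e-05, edgeR). The next called genes by adjusted p were CDK6 (-0.79), a partner of cyclin D1, the histone chaperone ASF1B (-1.13), FBXW7 (0.91) and ATAD5 (-1.14), which unloads PCNA. In all, 3 of 42 further replication genes (all lower), 4 of 28 G1/S control genes (2 in each direction) and 2 of 24 mitosis genes (both lower) were called after M-miR-512-3p. These are 7.14%, 14.3% and 8.33% of the lists, set against 9.96% of all genes, and no difference was tested.

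At 6 h fewer members passed. Over the mean of IC and I-miR-200c-3p, 1 member fell, where 2.89% of all genes were called and 1.73% fell. This member was again GINS1, with 41.1 to 64.3 CPM in the 6 DMSO libraries and 28.1 to 44.1 CPM in the 6 sorafenib libraries. Within each transfection the treatments did not overlap. The log2 fold change was -0.53 (SE 0.14, adjusted p = 0.046, edgeR), and the call remained in 2 of 12 fits that left out 1 library, those without replicate 3 of I-miR-200c-3p with DMSO or replicate 1 with sorafenib (adjusted p up to 0.15, without replicate 3 of IC with sorafenib). The next members by p were PCNA at -0.44 (adjusted p = 0.0742, edgeR), ORC6 at -0.38 and CDC6 at 0.27 on the log2 scale. The median of the members was -0.10 against 0.01 over all genes.

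In the single transfections of 6 h no member passed. After IC, edgeR and DESeq2 each called 0 members, 2 had an unadjusted p under 0.05, and 0.0393% of all genes were called. The lowest p values belonged to PCNA, with 233, 166 and 286 CPM in DMSO and 138, 186 and 193 CPM in sorafenib, to GINS1, with 42.2, 41.1 and 46.1 CPM and then 31.2, 36.4 and 28.1 CPM, and to CDC6, with 82.3, 80.2 and 77.1 CPM and then 95.6, 87.9 and 96.6 CPM. Only PCNA overlapped. After I-miR-200c-3p, edgeR and DESeq2 again called 0, 8 members had an unadjusted p under 0.05, and 2.28% of all genes were called. There GINS1 had 53.1, 64.3 and 44.6 CPM in DMSO and 44.1, 32.9 and 28.6 CPM in sorafenib. PCNA had 243, 268 and 319 CPM and then 195, 184 and 217 CPM. ORC6 had 64.9, 63.1 and 70.0 CPM and then 39.4, 41.6 and 60.2 CPM. These 3 genes did not overlap, and their adjusted p values from edgeR were 0.11, 0.187 and 0.205. Without replicate 2 of I-miR-200c-3p with DMSO, whose mitochondrial share is given above, 1 member was called. CDC6 was above all 6 DMSO libraries in all 6 sorafenib libraries of 6 h, at 87.9 to 110 CPM against 77.1 to 83.6 CPM, with an adjusted p of 0.165 from edgeR.

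E2F8, a repressor of E2F targets, was the pathway gene outside the 43 with the largest change at 6 h. It went from 14.7 ± 5.20 to 2.73 ± 0.265 CPM (SD, n = 3) after I-miR-200c-3p (log2 fold change -2.43, adjusted p = 0.000554, edgeR) and from 10.1 ± 1.89 to 5.23 ± 1.36 CPM (SD, n = 3) after IC. CDKN1A fell at this time, by 0.51 on the log2 scale in the mean of both transfections (adjusted p = 0.03, edgeR). The other pathway genes called in that mean were MCMBP, a partner of the helicase ring (-0.64), ASF1B (-0.50), CDK6 (-0.45) and CDCA8 (-0.48), all lower.

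Whether the sorafenib response of the members differed with time was asked in the control transfections. All controls of 6 h carried IC and all controls of 24 h carried MC, so time and oligonucleotide cannot be told apart here. The interaction of time with sorafenib called 0 members by edgeR and 0 by DESeq2, with 3 at an unadjusted p under 0.05, and 0.216% of all genes. ORC6 had the lowest p. Its sorafenib effect was higher at 24 h after MC than at 6 h after IC by 0.97 on the log2 scale (SE 0.28, adjusted p = 0.15, edgeR). The 12 libraries had 56.1, 47.4 and 68.3 CPM (DMSO) and 39.7, 55.0 and 46.7 CPM (sorafenib) at 6 h, and the values given above at 24 h. CCND1 (-0.64) and MCM6 (-0.84) followed, with adjusted p values from edgeR of 0.249 and 0.255. For MCM6 the 6 h values were 39.0, 41.8 and 30.8 CPM with DMSO and 39.2, 45.0 and 42.6 CPM with sorafenib after IC. At 24 h after MC they were 31.1, 37.6 and 30.1 CPM and 20.8, 28.8 and 14.6 CPM. For CCND1 the 6 h values after IC were 302, 282 and 269 CPM with DMSO and 303, 293 and 277 CPM with sorafenib.

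The 2 control transfections with DMSO were also set against each other. They differ in the oligonucleotide as well as in the time of culture, so the effects of the 2 cannot be told apart. No member was called by edgeR in MC against IC, and 13 had an unadjusted p under 0.05, all lower. Over all genes edgeR called 66 (0.528%). DESeq2 called 3 members (ORC6, PCNA and FEN1, all lower) and 422 genes in all. The members' median was -0.31 against 0.02 over all genes, and 38 of 43 values were below 0. In 13 of 43 members all MC libraries lay below all IC libraries, against 10.7% of all genes tested, a difference that was not tested. On the scale of the 24 h and 6 h fits, ORC6 was at 28.4, 35.7 and 25.2 CPM in MC and 56.1, 47.4 and 68.3 CPM in IC. FEN1 was at 81.0, 126 and 55.0 CPM and 172, 160 and 180 CPM, and PCNA at 154, 126 and 105 CPM and 233, 166 and 286 CPM. These CPM are on separate scales, whereas the log2 fold changes and the count of 13 members without overlap come from the joint fit of the controls. The log2 fold changes of ORC6, FEN1 and PCNA were -0.87, -0.90 and -0.75 (adjusted p = 0.0596, 0.0752 and 0.107, edgeR). Without replicate 2 of MC, edgeR called 3 members, FEN1 and ORC6 among them (adjusted p = 0.00722 and 0.0229).

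The mimics were compared with MC within each treatment to ask whether the miRNA changed the members. With DMSO, M-miR-222-5p called 0 members by edgeR and 0 by DESeq2, with 6 at an unadjusted p under 0.05, and 0% of all genes were called. All 6 were higher, and 39 of 43 log2 fold changes were above 0, with a median of 0.32 against -0.01 over all genes. In 9 members every mimic library exceeded every MC library, where 5.05% of all genes did. The 3 lowest p values were those of GINS2, RRM2 and FEN1. RRM2 had 175, 183 and 191 CPM after the mimic and 118, 143 and 122 CPM after MC, a log2 fold change of 0.51 (adjusted p = 0.803, edgeR). FEN1 had 150, 137 and 131 CPM after the mimic and 81.0, 126 and 55.0 CPM after MC. GINS2 had 92.3, 86.0 and 94.4 CPM after the mimic and 57.3, 65.7 and 61.8 CPM after MC. None of these 3 genes overlapped. GINS2 had a log2 fold change of 0.56 (SE 0.19, adjusted p = 0.624, edgeR).

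With DMSO, M-miR-512-3p also called 0 members by edgeR, with 9 at an unadjusted p under 0.05, while 0.634% of all genes were called. DESeq2 called FEN1 and CDC6, both higher, and 235 genes in all, where edgeR called 84. The median was 0.27 against -0.01 over all genes, and 35 of 43 values were above 0. In 11 members every mimic library exceeded every MC library, where 10.7% of all genes did. FEN1 was at 155, 189 and 215 CPM after the mimic, a log2 fold change of 1.10 against MC (SE 0.28, adjusted p = 0.0744, edgeR; 0.0219 without replicate 2 of MC). MCM2 was at 180, 137 and 147 CPM after the mimic and 108, 96.8 and 39.0 CPM after MC (log2 fold change 0.93, adjusted p = 0.153, edgeR). CDC6 was at 84.9, 90.1 and 95.5 CPM after the mimic and 58.7, 69.4 and 55.5 CPM after MC (0.56, adjusted p = 0.17, edgeR). These 3 genes did not overlap. CDKN1A, at 75.7 ± 11.1 CPM after the mimic and 150 ± 25.6 CPM after MC (SD, n = 3), was the 1 other pathway gene called, and was lower (adjusted p = 0.0183, edgeR). Both mimic comparisons share the 3 MC libraries, as do MC against IC and sorafenib after MC, so their values are not independent of each other.

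**Figure D4:**
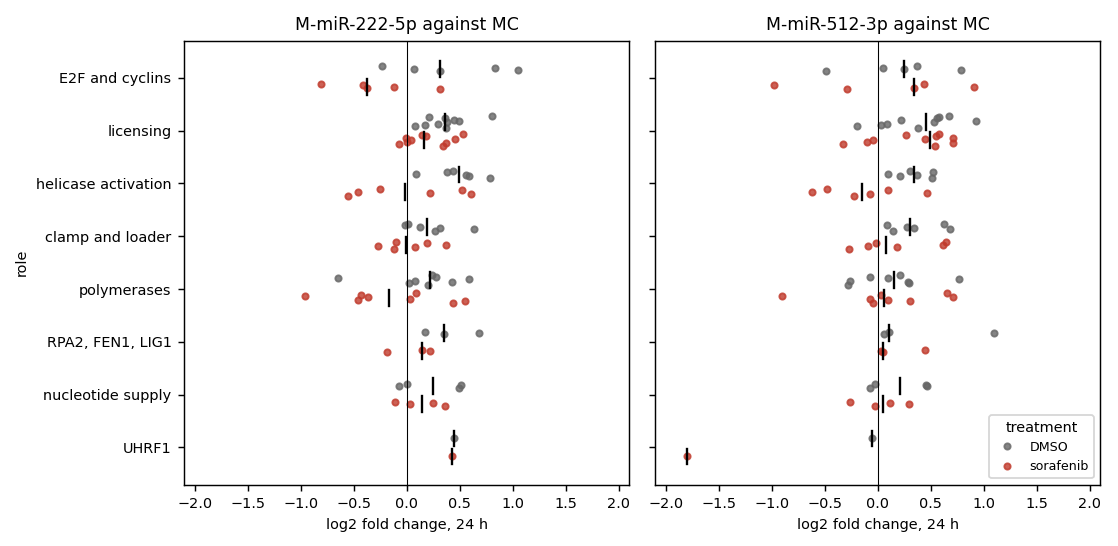
Log2 fold change at 24 h (x axis) of each of the 43 genes for each mimic against MC, by role (y axis), with DMSO in grey and sorafenib in red; black ticks are medians of the role. Grey points lie mostly right of 0 in both panels (39 and 35 of 43 genes), red points scatter around 0, and the red point of UHRF1 in the right panel is at -1.80.

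With sorafenib, the mimics differed from MC by a median of 0.04 (M-miR-222-5p) and 0.10 (M-miR-512-3p) over the members. For M-miR-222-5p, edgeR and DESeq2 called 0 members, with 2 at an unadjusted p under 0.05, and 0% of all genes were called. The lowest p values there were those of E2F1, at 32.1, 31.7 and 22.3 CPM after the mimic and 74.7, 33.8 and 41.7 CPM after MC, of PRIM1 at -0.96 on the log2 scale, and of GINS1 at -0.46. E2F1 did not overlap. PRIM1 was at 5.50, 16.7 and 7.50 CPM after the mimic and 16.3, 23.5 and 17.4 CPM after MC, and overlapped, as did GINS1. For M-miR-512-3p, 1 member was called, where 0.355% of all genes were called and 0.317% were lower. This was UHRF1, with 3.48, 2.30 and 3.57 CPM after the mimic and 11.3, 11.2 and 10.4 CPM after MC, without overlap. The log2 fold change was -1.80 (SE 0.40, adjusted p = 0.0448, edgeR). The call was absent from each of the 6 fits with 1 library fewer (adjusted p 0.0787 to 0.125, highest without replicate 3 of MC with sorafenib). It was also lost in the fit of these 2 groups alone, where its adjusted p was 0.371. CCNB1 was the 1 other pathway gene called there, with a log2 fold change of -1.67 (adjusted p = 0.0011, edgeR).

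The difference itself, between the sorafenib effect after a mimic and after MC, was tested as an interaction. For M-miR-512-3p it called 0 members by edgeR and 0 by DESeq2, with 3 at an unadjusted p under 0.05, and 0.00755% of all genes were called. UHRF1 had the lowest p, at -1.75 (SE 0.54, adjusted p = 0.766, edgeR), followed by FEN1 at -1.07 and MCM10 at -0.79. FEN1 had 72.7, 82.3 and 155 CPM with sorafenib after M-miR-512-3p and 96.9, 126 and 82.2 CPM after MC. MCM10 had 61.7, 58.5 and 48.9 CPM with DMSO and 48.6, 36.3 and 30.7 CPM with sorafenib after M-miR-512-3p. After MC it had 28.7, 53.4 and 55.2 CPM and 56.8, 62.2 and 42.1 CPM. For M-miR-222-5p it called 0 members by either tool, with 1 at an unadjusted p under 0.05, and 0% of all genes. GINS4 at -1.35, E2F2 at -1.24 and MCM10 at -0.69 had the lowest p values, all with an adjusted p of 1.0 from edgeR. GINS4 had 28.2, 20.2 and 14.6 CPM with DMSO and 11.5, 16.1 and 8.66 CPM with sorafenib after M-miR-222-5p. After MC it had 11.7, 15.0 and 10.0 CPM and 11.7, 21.1 and 20.3 CPM. E2F2 had 14.1, 15.1 and 16.7 CPM and then 4.62, 8.47 and 4.67 CPM after the mimic, and 10.5, 7.04 and 8.17 CPM and then 6.84, 10.9 and 5.79 CPM after MC. A difference between a mimic and MC in the response to sorafenib was therefore not shown for any member, and the standard errors leave room for one.

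The inhibitor of miR-200c-3p was compared with IC at 6 h of treatment. With DMSO, edgeR and DESeq2 called 0 members, with 1 at an unadjusted p under 0.05, and 0.0157% of all genes were called. With sorafenib, both tools called 0 members, with 1 at an unadjusted p under 0.05, and 0% of all genes were called. The medians were 0.08 and 0.07 on the log2 scale. GINS2 (0.33), UHRF1 (0.62) and E2F1 (0.46) had the lowest p values with DMSO, and E2F2 (0.51), RFC2 (0.41) and PRIM1 (0.37) with sorafenib. E2F1 was at 76.0, 111 and 60.0 CPM after the inhibitor and 49.5, 52.4 and 77.3 CPM after IC, and UHRF1 at 23.7, 16.5 and 34.3 CPM and 16.4, 16.0 and 16.0 CPM, both with DMSO. GINS2 was at 93.0, 87.6 and 93.8 CPM and 67.7, 72.9 and 77.8 CPM. Of these, GINS2 and UHRF1 did not overlap. With sorafenib, E2F2 was at 16.9, 20.3 and 17.8 CPM after the inhibitor and 11.6, 11.3 and 15.7 CPM after IC, without overlap, while RFC2 and PRIM1 overlapped. The interaction of the inhibitor with sorafenib called 0 members by edgeR and 0 by DESeq2, with 0 at an unadjusted p under 0.05, and 0% of all genes, and the lowest p values were those of RFC3 (-0.40), RFC1 (0.36) and POLE2 (0.57), all with an adjusted p of 1.0 from edgeR.

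Sites that match a seed were counted in the annotated 3′ untranslated regions of GENCODE release 44, taking 1 canonical transcript per gene. The site of miR-512-3p, CAGCACT, was present in 8 of 43 members (18.6%) and in 23.0% of 11194 tested genes. These were E2F2, ORC6, CDT1, MCM4, MCM6, GINS2, GINS4 and POLD3, but not UHRF1. In M-miR-512-3p against MC with DMSO, the 8 had a median log2 fold change of 0.25 and the 35 others 0.27. With sorafenib the medians were 0.00 and 0.10. The site of miR-222-5p, CTACTGA, was in 1 member, CDC6 (2.33%, against 10.5% of tested genes), which had a log2 fold change of 0.36 with DMSO and 0.18 with sorafenib against MC. The site of miR-200c-3p, CAGTATT, was in 6 members, CCNE2, CDT1, MCM10, RFC3, RRM2 and UHRF1 (against 19.1% of tested genes), with a median of 0.04 after the inhibitor with DMSO and 0.08 in the 37 others, and of 0.10 and 0.07 with sorafenib. A match gives only the letters in this transcript. The sites in E2F2, MCM6 and CDC6 are shown, the first 2 because these genes fell under sorafenib at 24 h and the last because it is the only member with the miR-222-5p site, with the match in capitals. They lie at chr1:23508345-23508374 (-) for E2F2, chr2:135840624-135840653 (-) for MCM6 and chr17:40304126-40304155 (+) for CDC6.
E2F2: gctcagctggaCAGCACTttttagaaaagt
MCM6: aacacaggcttCAGCACTtcctttggtgtg
CDC6: gagttttctgtCTACTGAtttgttagtttc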

How the data were processed

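The authors made FASTQ files with DRAGEN, trimmed the reads and used STAR (GRCh38) for alignment, HTSeq-count for gene counts and DESeq2 downstream; versions of the aligner and counter, annotation release, strand handling and molecular identifiers are not given in the sources used here. The deposited table holds raw read counts per gene. The authors' normalised signal table was not used, because count tests need the raw table. Of 60199 lines, 92 named no gene and held 3 counts. Of the seed matches, only those in 3 members are printed. The 43 members and the other lists were chosen with earlier results of these data known.

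Counts were tested with edgeR 4.0.16 (R 4.3.3), quasi-likelihood F test, TMM scaling and filterByExpr, with 1 coefficient per group, two-sided. The 12 libraries of 6 h (12738 genes), the 18 of 24 h (13244) and the 12 controls (12500) were fitted apart. Benjamini-Hochberg adjustment ran over all genes of a fit, at 0.05. The SE is the log2 fold change over the square root of F. The code was tested on simulated data with 200 changed genes. DESeq2 1.42.0, other scalings, no filter, a replicate block and leaving out libraries were alternatives. Members are all named by role; values per library are given for called members (at most 8 per comparison) or the 3 with the lowest p. Of the other lists, at most 6 per comparison with the lowest adjusted p are named.

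Same-numbered libraries were checked for pairing by the correlation of their deviations from group means over 8570 genes. Between M-miR-222-5p with DMSO and with sorafenib these were 0.202, 0.152 and 0.229, between MC and M-miR-222-5p with DMSO 0.363, 0.308 and 0.370, and between MC with DMSO and M-miR-222-5p with sorafenib 0.115, 0.106 and 0.205, so these groups are read as paired by the data; the labels state no pairing. In every other pair of groups the lowest correlation was below all of these. Some means were no lower: 0.214 between IC with DMSO and with sorafenib (0.0473, 0.146 and 0.449), against 0.194 between M-miR-222-5p with DMSO and with sorafenib. Pairing in the other groups was therefore not settled. Replicate 2 had the lowest total count in each group read as paired (3941570 in MC with DMSO, 4474859 and 4566937 in M-miR-222-5p with DMSO and sorafenib). Whether shared depth or shared culture gave these correlations was not tested. A count of 0 allows up to 0.311 to 0.762 CPM (3 counts) per library, for counting error only.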

Additional observations from a re-analysis of the deposited data

How the results depend on the processing

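The count of called members was within 1.5 times its main value in 88 of 105 fits with another setting. It moved further in the other 17, given below. Most comparisons had 0 called members in the main fit, and fits whose count stayed at 0 are among the 88. No called value changed sign. Each count below is followed in brackets by all genes called in that fit, against all genes called in the main fit. Without the low-count filter the count was 2 for sorafenib at 6 h (mean) (547 against 368) and 5 for sorafenib after M-miR-512-3p (1427 against 1319). It was 2 for M-miR-512-3p against MC with DMSO (292 against 84) and 5 for MC against IC (573 against 66). DESeq2 gave 2 at 6 h (mean) (489 against 368), 3 after M-miR-222-5p (1018 against 580) and 5 after M-miR-512-3p (1790 against 1319). It gave 2 for M-miR-512-3p against MC with DMSO (235 against 84), 2 with sorafenib (227 against 47), and 3 for MC against IC (422 against 66). The fit of only the groups compared gave 0 for sorafenib after M-miR-222-5p (523 against 580). It gave 1 for M-miR-512-3p against MC with DMSO (165 against 84) and 0 with sorafenib (0 against 47). Scaling by total counts gave 8 after M-miR-512-3p (1543 against 1319). It moved the median of all genes to -0.12 after MC, -0.14 after M-miR-222-5p and -0.22 after M-miR-512-3p. The 10 genes called at 24 h (mean) kept their sign under each scaling. The cause of these shifts was not tested. With the replicate block, 2 members were called at 6 h (mean) (372 against 368), 2 after M-miR-222-5p (748 against 580) and 5 after M-miR-512-3p (1520 against 1319). The block changed no other count by more than 1.5 times. Outside the groups named as paired, the correlations did not settle whether the replicate numbers pair libraries.

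Leaving out 1 library gave 8 to 12 called members for sorafenib at 24 h (mean), where POLA2 and POLE were the calls lost. The range was 2 to 5 after M-miR-512-3p, highest without its replicate 3 with sorafenib, 0 to 3 after M-miR-222-5p, highest without its replicate 2 with sorafenib, and 0 to 1 after MC, after I-miR-200c-3p and at 6 h (mean). It was 0 to 1 for M-miR-512-3p against MC with DMSO, 0 in all fits with sorafenib, and 0 to 3 for MC against IC. The other comparisons stayed at 0. Shares of all genes called in the fits with 1 library fewer are not given here, so these counts stand without a background. Depth limits the low genes: POLD1 was at 0.279 CPM in its lowest sorafenib library, and UHRF1 rested on 12 counts in 1 library.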
